A study of Homo sapiens with 6 samples.

Results

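The nuclear genes for the subunits and assembly factors of respiratory complexes II to V were examined in SKM-1 cells, a cell line derived from human acute myeloid leukaemia, after celastrol. Members were the protein-coding genes named SDHA to SDHD, SDHAF1 to SDHAF4, CYC1 or CYCS, or with a name beginning with UQCR, with COX and a digit, or with ATP5. That gave 66 of the 58735 genes listed, with 8 in complex II, 10 in complex III, 26 in complex IV and 21 in complex V, and CYCS, the gene for the electron carrier cytochrome c. RNA was sequenced from 3 libraries of cells treated with celastrol for 48 h and from 3 libraries of cells given DMSO, its solvent, for 48 h. Celastrol is a triterpenoid from the thunder god vine, and the labels give no dose. All 6 libraries came from this 1 cell line. Nothing in the labels ties the libraries of a treatment to separate cultures, and the p-values therefore cover spread that may be only technical.

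Complexes II, III and IV pass electrons from succinate and reduced quinone to oxygen, complexes III and IV pump protons across the inner mitochondrial membrane, and complex V is the ATP synthase that uses the proton gradient. All subunits of complex II are nuclear genes. Complexes III, IV and V are assembled from nuclear subunits, made in the cytosol and imported, together with a few catalytic or membrane subunits that are encoded on mitochondrial DNA. NRF1, GABPA and YY1 are transcription factors known to bind promoters of many nuclear respiratory genes in human cells.

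Reads assigned to genes numbered 15231742 to 16231066 in celastrol libraries, against 13549187 to 15410904 in DMSO libraries. Of the markers of myeloid cells, 4 of 10 reached a mean of 1 FPKM (read fragments divided by gene length and by a total for each library), and their sum lay between 42.3 and 46.6 FPKM with celastrol and between 57.1 and 67.0 FPKM with DMSO. The granule gene MPO was near 0, and the stem cell marker CD34 was at 0 reads in every library. All 7 erythroid markers reached 1 FPKM, with sums of 489.8 to 539.9 FPKM with celastrol and 599 to 617 FPKM with DMSO. So were 3 of 4 epithelial markers, with sums of 202 to 227 FPKM with celastrol and 197 to 227 FPKM with DMSO. Within these sums genes differed: EPCAM and KRT19 were called lower and KRT8 higher, and of the erythroid markers KLF1, GATA1 and ALAS2 were called lower while RHAG, with a log2 fold change of 0.15, was not called. Of 5 lymphoid markers 2 reached 1 FPKM, with sums of 10.5 to 11.8 FPKM with celastrol and 7.42 to 9.32 FPKM with DMSO. Of 3 stromal markers, all were under 0.1 FPKM in each library. The part of these marker genes in the results on respiratory genes was not tested.

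Over the respiratory genes celastrol library 3 stood apart from the other celastrol libraries. It held the highest of the 3 celastrol values in 42 of the 57 members tested (73.7%), against 38.9% of all 12685 genes tested. Its level was above the mean of the other celastrol libraries in 48 of 57 members, by a median of 0.16 on the log2 scale, while the median over all genes was 0.008. The DMSO libraries had median deviations of 0.03, -0.05 and 0.01 over the members. Values without that library are given beside some of the results only. They are not given for ATP5F1E, for single genes outside the rule or for the sums by complex.

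**Figure D1:**
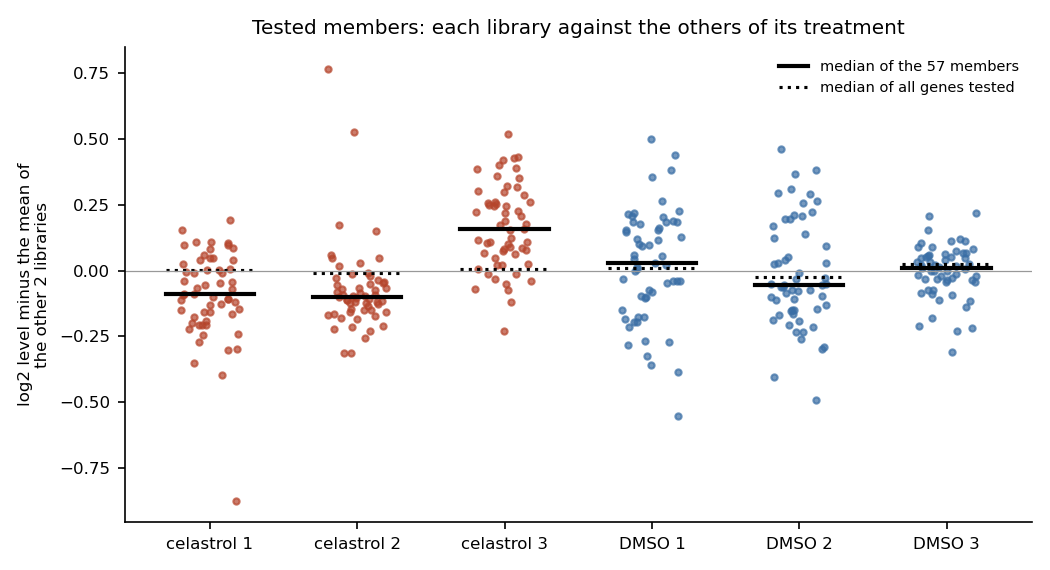
Each point is 1 of the 57 tested members. The vertical axis is the log2 of FPKM + 0.1 in that library minus the mean of the other libraries of the same treatment, and the horizontal axis gives the library. Solid lines mark the median of the members and dotted lines the median of all genes tested. Celastrol library 3 has its members' median at 0.16, and celastrol libraries 1 and 2 have theirs at -0.09 and -0.10.

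Nuclear respiratory genes were called in both directions with celastrol. Of the 57 members with a mean of at least 1 FPKM, 6 were called higher and 10 lower by limma-trend on log2(FPKM + 0.1) at a Benjamini-Hochberg adjusted p under 0.05 over all genes. The 16 calls were 28.1% of the members tested, and 29.5% of all genes tested were called (15.3% higher and 14.2% lower). The treatments did not overlap in 26 of 57 members (45.6%), against 47.3% of all genes tested. Both shares are near the background, so they are not a result about these genes as a set. The median log2 fold change of the members was 0.03, with 0.02 over all genes tested. By complex it was -0.06 in complex II, 0.09 in complex III, 0.06 in complex IV and -0.0025 in complex V, where 9 of 19 tested members lay above 0 and 10 below. Without celastrol library 3 the median was -0.04 over all members, against 0.02 over all genes, and it was -0.041 in complex II, -0.036 in complex III, -0.035 in complex IV and -0.043 in complex V, so the medians of complexes III and IV changed sign. The split of calls depended on how libraries were scaled. Rescaled to TPM, in which every library has the same total over genes per unit of length, 28 members were higher and 4 lower, with a median of 0.27 over the members and 0.26 over all genes. Scaled to listed reads, 12 members were higher and 6 lower, and limma-voom on the recovered reads called 19 higher and 8 lower, with medians of all genes of 0.12 under both. Among all genes, 52.0% of calls were higher as deposited, 86.6% as TPM, 70.0% with listed reads and 71.4% by limma-voom. The libraries are bulk RNA, in which less RNA per cell and fewer cells carrying it cannot be told apart.

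**Figure D2:**
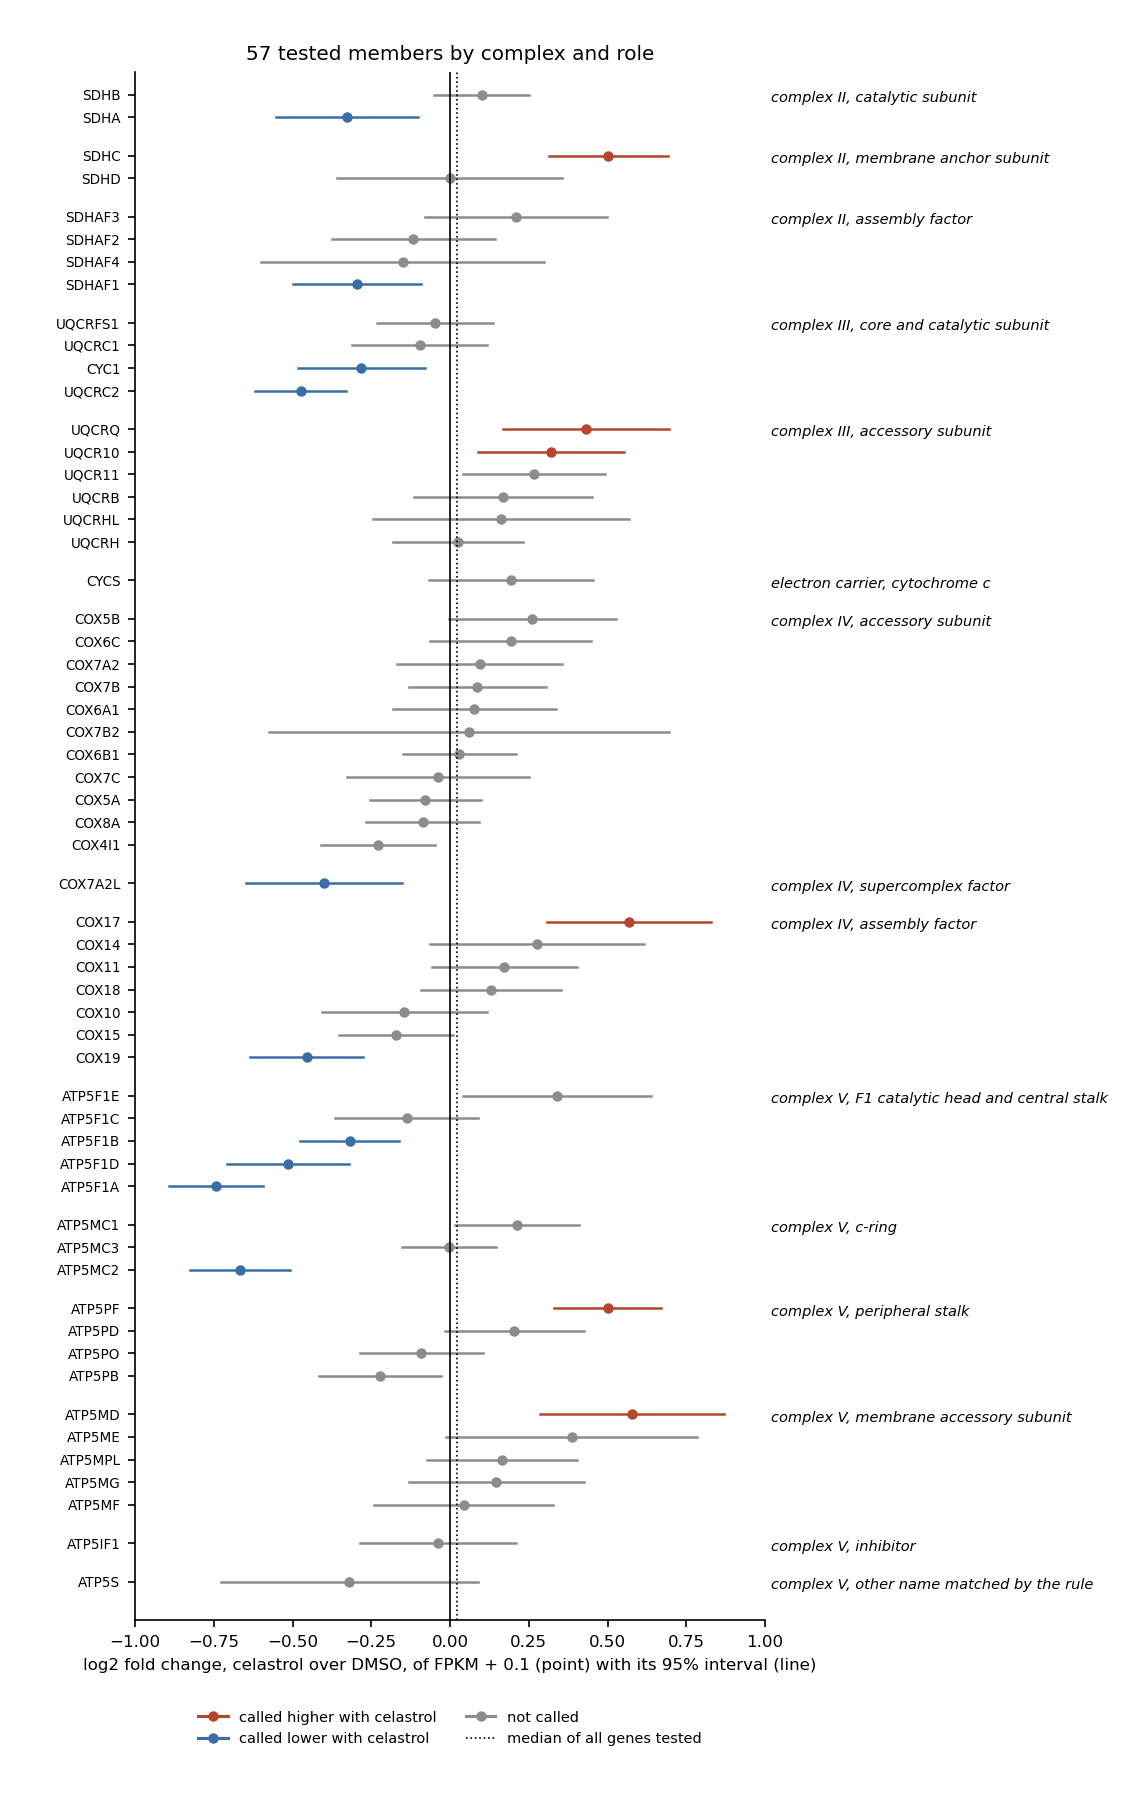
The horizontal axis is the log2 fold change, celastrol over DMSO, of FPKM + 0.1 (points) with its 95% interval (lines), and each row is 1 of the 57 tested members, grouped by complex and role. Members called higher are red and members called lower are blue, the solid line is at 0 and the dotted line is the median of all genes tested, 0.02. The changes run between -0.74 for ATP5F1A and 0.58 for ATP5MD.

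Not all members could be tested. COX4I2 and COX6A2, isoforms of complex IV known from lung and from heart and skeletal muscle, had 0 reads in all 6 libraries. COX6B2, COX7A1, COX8C, COX16, COX20, ATP5MGL and ATP5MF-PTCD1 had means under 1 FPKM. COX16 shared 36.0% and COX20 shared 72.0% of their exonic bases with another gene, and ATP5MF-PTCD1 is a readthrough gene that shared 93.8%, so reads on them can be divided or set aside by the counting.

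In complex II, the succinate dehydrogenase that also serves the tricarboxylic acid cycle, the catalytic subunit SDHA fell and the membrane anchor SDHC rose. SDHC, part of the quinone-binding anchor, had 9.65, 10.1 and 11.0 FPKM in celastrol libraries 1 to 3, against 6.88, 7.18 and 7.61 FPKM in DMSO libraries 1 to 3. All celastrol libraries lay above all DMSO libraries, the log2 fold change was 0.50 (SE 0.08), and the adjusted p was 0.00418 by limma-trend. SDHA, the flavoprotein that oxidises succinate, had 26.6, 23.5 and 24.3 FPKM with celastrol and 34.3, 27.5 and 31.7 FPKM with DMSO. Its log2 fold change was -0.33 (SE 0.10, adjusted p = 0.0389), and named pseudogenes of SDHA held reads equal to 17.2% of its own. The call on SDHA was kept in 1 of the 6 fits that left out a library, the fit without DMSO library 2, and the other adjusted p-values lay between 0.0505 and 0.131.

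SDHB, the iron-sulfur subunit, averaged 45.8 ± 2.17 FPKM with celastrol against 42.7 ± 0.78 FPKM with DMSO, with SD over n = 3, and was not called (adjusted p = 0.282). SDHD, the other anchor, averaged 26.9 ± 0.24 FPKM with celastrol and 27.4 ± 6.29 FPKM with DMSO, and the DMSO libraries ranged between 20.8 and 33.3 FPKM, on both sides of all celastrol libraries. The ratio of SDHA to SDHC within a library was 2.75, 2.32 and 2.20 with celastrol and 4.99, 3.84 and 4.17 with DMSO. These genes were taken for their calls in opposite directions, which already fixes the direction of the ratio, so it is a description of each library free of its scaling and no further support. Of the 4 assembly factors, SDHAF1, which helps to mature the iron-sulfur subunit, was called lower at 19.2, 17.9 and 19.6 FPKM with celastrol and 23.2, 21.1 and 25.5 FPKM with DMSO (log2 fold change -0.29, adjusted p = 0.0390). That call was also kept only without DMSO library 2 among the fits that left out a library. SDHAF2, SDHAF3 and SDHAF4 were not called, with changes between -0.15 and 0.21 on the log2 scale.

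Complex III, the cytochrome bc1 complex, showed opposite signs between its parts. All 4 core and catalytic subunits had a log2 fold change under 0 (2 called lower) and all 6 accessory subunits had one above 0 (2 called higher). The shares of all genes tested were 14.2% lower and 15.3% higher. UQCRC2, a core protein of the matrix side, had 46.6, 44.5 and 45.7 FPKM with celastrol and 61.2, 64.1 and 64.8 FPKM with DMSO. The treatments were far apart relative to their spread, with a log2 fold change of -0.47 (SE 0.06, adjusted p = 0.00185). CYC1, the cytochrome c1 that hands electrons to cytochrome c, had 124, 112 and 119.9 FPKM with celastrol and 160.2, 132 and 142 FPKM with DMSO. Its change was -0.28 (SE 0.09, adjusted p = 0.0447), and the call was kept in 1 of 6 fits without a library, again the fit without DMSO library 2. UQCRC1, the other core protein, averaged 56.0 ± 3.30 FPKM with celastrol and 60.0 ± 6.55 FPKM with DMSO. UQCRFS1, the Rieske iron-sulfur protein, averaged 30.0 ± 1.26 FPKM with celastrol and 31.0 ± 2.39 FPKM with DMSO (each mean is of n = 3, with its SD), and neither was called.

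Among the accessory subunits, UQCRQ, which sits beside cytochrome b, had 73.6, 73.7 and 93.9 FPKM with celastrol and 64.6, 54.7 and 58.6 FPKM with DMSO. Its log2 fold change was 0.43 (SE 0.11, adjusted p = 0.0255). Celastrol library 3 was the highest, and without it the change was 0.31 with an adjusted p of 0.0503. The call was also lost without DMSO library 2 (adjusted p = 0.0616) and without DMSO library 3 (adjusted p = 0.0815). UQCRQ shared 20.8% of its exonic bases with GDF9 on the opposite strand. UQCR10, a small membrane subunit, had 40.7, 40.6 and 48.5 FPKM with celastrol and 38.2, 33.3 and 32.4 FPKM with DMSO. Its change was 0.32 (adjusted p = 0.0453), and 0.24 without celastrol library 3 (adjusted p = 0.121), and of the fits that left out a library it kept its call only without DMSO library 1. With the replicate number as a block, the adjusted p of UQCR10 was 0.0730. UQCRH, the hinge protein and the most abundant complex III member, had 302, 296 and 358 FPKM with celastrol and 319, 297 and 321 FPKM with DMSO, and the treatments overlapped (log2 fold change 0.03, adjusted p = 0.854). UQCRHL, a gene close to UQCRH in sequence, stood at 0.0138 of the FPKM of UQCRH with celastrol and at 0.0125 of it with DMSO.

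UQCR11 and UQCRB, further small subunits, had changes of 0.27 (adjusted p = 0.0769) and 0.17 (adjusted p = 0.326).

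The split of complex III depended on scaling and on celastrol library 3. With FPKM rescaled to TPM or to listed reads, 2 of the 4 core subunits had changes under 0. Without celastrol library 3, 4 of the 6 accessory subunits were above 0 and limma-trend called 0, with 2 at an unadjusted p under 0.05. It also called 0 without DMSO library 2 and 0 without DMSO library 3, again with 2 at an unadjusted p under 0.05 in each. In these fits, in that order, 1211 of 12671, 1948 of 12660 and 1140 of 12695 genes tested were called higher. With all libraries limma-voom called 4 of the 6 accessory subunits higher, where it called 3650 of all 12685 genes tested higher. CYCS, the soluble carrier between complexes III and IV, had 47.3, 47.6 and 51.8 FPKM with celastrol and 36.1, 48.8 and 44.0 FPKM with DMSO and was not called (adjusted p = 0.228).

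In complex IV, cytochrome c oxidase, 0 of the 11 accessory subunits tested was called, where 29.5% of all genes tested were. The log2 fold changes of these subunits ran between -0.23 and 0.26. At an unadjusted p under 0.05, limma-trend had 0 higher and 1 lower. Limma-voom called 2 of the 11 higher and 0 lower, the TPM scaling called 6 higher and 0 lower, and scaling to listed reads called 1 higher and 0 lower. In the same order, 3650, 5266 and 3024 of all 12685 genes tested were higher, and 1465, 813 and 1295 were lower. COX4I1 was the 1 called lower, with 0 higher, under quantile normalization, median centring, a minimum of 5 FPKM and protein-coding genes alone. Without celastrol library 3, 5 of the 11 were above 0, against 7 with all libraries. COX5B, which carries zinc, had a change of 0.26, COX6C of 0.19, COX7C of -0.04 and COX5A of -0.08. As TPM all 11 were above 0. COX8A, the complex IV member of the highest level, had 279, 249 and 268 FPKM with celastrol and 299, 263 and 284 FPKM with DMSO, and its treatments overlapped. COX4I1, the common isoform of the subunit that binds regulatory nucleotides, had 71.4, 66.3 and 76.5 FPKM with celastrol and 88.3, 79.7 and 82.9 FPKM with DMSO. Its treatments did not overlap, yet it missed the threshold at a log2 fold change of -0.23 (95% interval -0.41 to -0.05, adjusted p = 0.0612).

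The tissue-restricted isoforms were low or absent beside their common partners. COX6A2, COX6B2, COX7A1 and COX8C were too low to be tested, and COX7B2 was tested and not called. COX6A1 averaged 39.2 ± 6.23 FPKM with celastrol and 36.8 ± 0.79 FPKM with DMSO (n = 3 each, with SD, here and below), while COX6A2 was at 0. COX6B1 averaged 169.6 ± 5.52 FPKM with celastrol and 166 ± 13.4 FPKM with DMSO, and COX6B2, the testis isoform, averaged 0.36 FPKM with celastrol and 0.38 FPKM with DMSO. COX7A2 averaged 63.2 ± 10.3 FPKM with celastrol and 58.7 ± 2.62 FPKM with DMSO. COX7A1, the muscle isoform, averaged 0.43 FPKM with celastrol and 0.78 FPKM with DMSO, and its celastrol libraries lay below its DMSO libraries in FPKM, on 5 to 9 reads with celastrol and 8 to 15 reads with DMSO. These levels leave the common isoform as nearly all of each pair under both treatments. COX7B averaged 23.8 ± 2.55 FPKM with celastrol and 22.3 ± 1.42 FPKM with DMSO. COX7B2 averaged 2.28 ± 0.86 FPKM with celastrol and 2.09 ± 0.34 FPKM with DMSO, from 18 to 42 reads per library. COX8C had 1, 0 and 1 reads with celastrol and 0 reads in each DMSO library.

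The calls of complex IV were on assembly factors and on COX7A2L. COX17, the copper chaperone that supplies the oxidase, had 8.81, 9.21 and 10.5 FPKM with celastrol and 5.60, 7.18 and 6.41 FPKM with DMSO. The treatments did not overlap and the log2 fold change was 0.57 (SE 0.11, adjusted p = 0.00900). COX19, a small protein of the intermembrane space needed for oxidase assembly, had 3.72, 3.79 and 3.62 FPKM with celastrol and 5.00, 5.24 and 5.11 FPKM with DMSO. Its libraries were tightly grouped, with a log2 fold change of -0.45 (SE 0.08, adjusted p = 0.00506). Both are known in yeast as small twin-cysteine proteins, and their ratio, COX17 over COX19, was 2.37, 2.43 and 2.92 with celastrol and 1.12, 1.37 and 1.25 with DMSO, again a direction fixed by their calls. COX17 shared 17.6% of its exonic bases with POPDC2 and COX19 shared 21.4% with ADAP1.

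COX7A2L, a relative of COX7A2 that joins complexes III and IV into supercomplexes, had 20.3, 21.3 and 25.4 FPKM with celastrol and 27.4, 32.5 and 28.4 FPKM with DMSO. Its log2 fold change was -0.40 (SE 0.11, adjusted p = 0.0272), and the call was kept without celastrol library 3 and without DMSO library 1, and lost without each of the other libraries. The remaining tested assembly factors, COX10 and COX15 of haem A synthesis, COX11 of copper insertion, COX14 and COX18, had changes between -0.17 and 0.28 and were not called.

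Complex V had calls in both directions, and as deposited ATP5F1A had the largest fall among the members. The F1 head, where ATP is made, and the central stalk had 3 of 5 subunits called lower and 0 higher. The shares of all genes tested were 14.2% lower and 15.3% higher. As TPM 2 of the 5 were called lower and 1, ATP5F1E, higher, where 813 of all 12685 genes tested were lower and 5266 higher. ATP5F1A, the alpha subunit, had 49.3, 45.7 and 47.1 FPKM with celastrol and 79.7, 76.7 and 81.5 FPKM with DMSO. The celastrol mean was 0.597 of the DMSO mean, the log2 fold change was -0.74 (SE 0.06), and the adjusted p was 0.000353. ATP5F1D, the delta subunit of the central stalk, had 56.0, 48.4 and 49.7 FPKM with celastrol and 78.3, 69.0 and 72.8 FPKM with DMSO (log2 fold change -0.51, SE 0.08, adjusted p = 0.00418). ATP5F1B, the catalytic beta subunit and the most abundant of all members, had 551, 508 and 517 FPKM with celastrol and 671, 626 and 667 FPKM with DMSO. Its change was -0.32 (SE 0.07, adjusted p = 0.0119), lost without celastrol library 2 (adjusted p = 0.0533) and without DMSO library 3 (adjusted p = 0.0662), and -0.08 (adjusted p = 0.294) as TPM.

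Alpha and beta subunits alternate in the F1 head in equal number, and their mRNAs did not fall by the same factor. The ratio of ATP5F1A to ATP5F1B was 0.0894, 0.0900 and 0.0911 with celastrol and 0.119, 0.123 and 0.122 with DMSO. The spread within a treatment was small beside the gap between them. The size of the ratio rests on the exonic lengths that divide the reads, 10908 bases for ATP5F1A and 2322 for ATP5F1B. Only its change between treatments is therefore read here. ATP5F1C, the gamma subunit, averaged 89.2 ± 9.62 FPKM with celastrol and 98.0 ± 7.83 FPKM with DMSO. ATP5F1E, the epsilon subunit, averaged 22.8 ± 4.15 FPKM with celastrol and 17.8 ± 1.32 FPKM with DMSO, each mean with its SD of n = 3, and neither was called. The treatments did not overlap in ATP5F1E (log2 fold change 0.34, adjusted p = 0.0833 by limma-trend). It was called higher as TPM, with listed reads, by limma-voom, at a minimum of 5 FPKM and with protein-coding genes alone.

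The c-ring, the rotor that protons turn, is built from a subunit that 3 nuclear genes encode. ATP5MC2 had 40.3, 36.7 and 38.1 FPKM with celastrol and 63.9, 60.2 and 59.0 FPKM with DMSO, so that every celastrol library lay below every DMSO library (log2 fold change -0.67, SE 0.07, adjusted p = 0.000683). ATP5MC1 had 28.9, 27.0 and 28.8 FPKM with celastrol and 26.5, 22.0 and 24.7 FPKM with DMSO, apart but not called (log2 fold change 0.21, adjusted p = 0.0965). It was called higher as TPM, with listed reads, with nuclear reads, by limma-voom and without DMSO library 1. ATP5MC3 had 53.9, 53.2 and 57.6 FPKM with celastrol and 55.7, 53.7 and 55.5 FPKM with DMSO, and overlapped (log2 fold change -0.0025, adjusted p = 0.979). As TPM, limma-trend called ATP5MC3 higher (log2 fold change 0.24, adjusted p = 0.0112). As a share of the FPKM of the 3 genes, ATP5MC2 held 31.6% ± 1.09 with celastrol, against 43.5% ± 0.98 with DMSO (n = 3 each, with SD). ATP5MC1 held 23.2% ± 0.19 with celastrol and 17.4% ± 1.03 with DMSO, and ATP5MC3 held 45.2% ± 1.27 with celastrol and 39.2% ± 0.92 with DMSO. The gene of the largest share of FPKM was ATP5MC3 with celastrol and ATP5MC2 with DMSO. Scaling of libraries does not enter these shares, but the exonic lengths that divide the reads do. The lengths were 2615 bases for ATP5MC1, 3991 for ATP5MC2 and 6780 for ATP5MC3. In reads, ATP5MC3 lay above ATP5MC2 in every library. DMSO libraries 1 to 3 had 5439, 4902 and 5591 reads on ATP5MC3 and 3671, 3235 and 3498 on ATP5MC2. The change of leading gene thus holds for FPKM and not for reads.

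**Figure D3:**
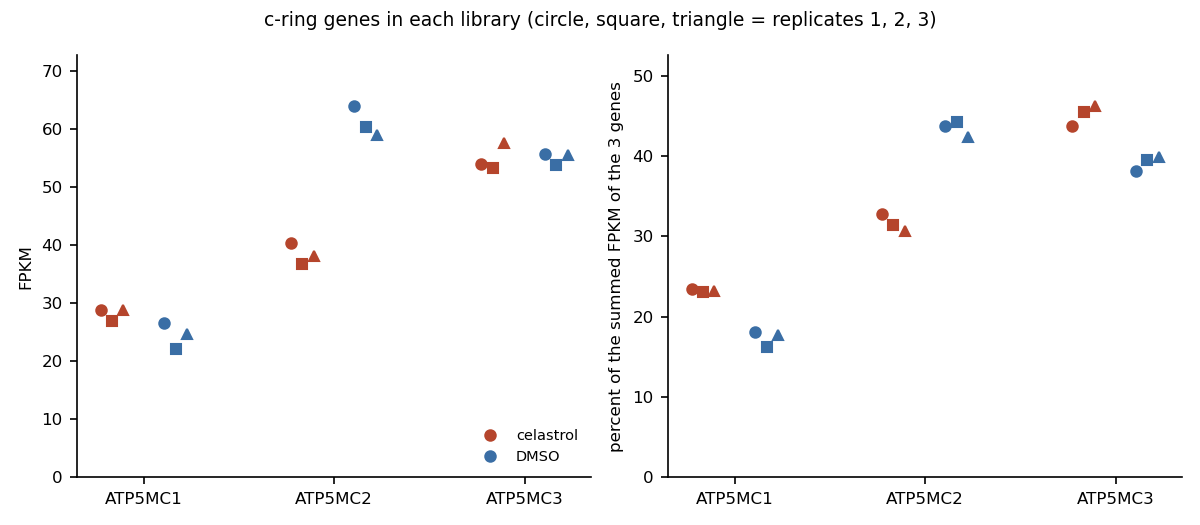
The left panel gives FPKM and the right panel the percent of the summed FPKM of the 3 c-ring genes, by gene on the horizontal axis, with celastrol left of DMSO and 1 point per library. ATP5MC2 lies between 36.7 and 40.3 FPKM with celastrol and between 59.0 and 63.9 FPKM with DMSO, and its share does not overlap between treatments.

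The coding sequences of ATP5MC1 and ATP5MC2 are shown because, as deposited, ATP5MC2 was called lower and ATP5MC1 was not called, while both end in the same protein. The difference between their changes was not tested. The last 77 codons before the stop, read from GENCODE release 29 transcripts, encode identical residues. They are written in the coding direction, and capitals mark the 27 of 231 bases that differ, of which 24 are the last bases of a codon.
ATP5MC1: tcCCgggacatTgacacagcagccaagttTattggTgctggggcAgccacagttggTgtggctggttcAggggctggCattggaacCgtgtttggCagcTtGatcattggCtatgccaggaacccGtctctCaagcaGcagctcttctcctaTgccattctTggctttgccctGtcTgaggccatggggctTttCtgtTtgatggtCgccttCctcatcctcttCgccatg
ATP5MC2: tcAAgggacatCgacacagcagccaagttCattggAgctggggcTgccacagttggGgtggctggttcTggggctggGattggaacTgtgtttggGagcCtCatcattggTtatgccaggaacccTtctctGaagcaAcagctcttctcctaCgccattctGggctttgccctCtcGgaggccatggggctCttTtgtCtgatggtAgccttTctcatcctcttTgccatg
The stretches were identical at 88.3% of bases. Named processed pseudogenes held reads equal to 0.16% of those of ATP5MC1 and 0.02% of those of ATP5MC2.

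The peripheral stalk, which holds the head still, had 1 of 4 subunits called, where 29.5% of all genes tested were called. ATP5PF, coupling factor 6, had 38.4, 38.5 and 43.4 FPKM with celastrol and 28.3, 27.6 and 28.9 FPKM with DMSO, with no overlap (log2 fold change 0.50, SE 0.07, adjusted p = 0.00280). ATP5PB, ATP5PD and ATP5PO, the b, d and OSCP subunits, were not called at changes of -0.22, 0.20 and -0.09, and as TPM all 4 stalk subunits were above 0. ATP5F1A over ATP5PF was 1.28, 1.19 and 1.08 with celastrol and 2.82, 2.78 and 2.82 with DMSO, a direction that their opposite calls already fix. Of the small membrane subunits all 5 tested had a change above 0 and 1 was called, a count above 0 that was 4 of 5 without celastrol library 3. ATP5MD, also known as DAPIT, had 72.0, 75.3 and 96.5 FPKM with celastrol and 59.2, 54.7 and 48.5 FPKM with DMSO. Its log2 fold change was 0.58 (SE 0.13, adjusted p = 0.0128), and without celastrol library 3 it was 0.45 (adjusted p = 0.0242). It shared 18.1% of its exonic bases with other genes, in the main with a microRNA gene. ATP5ME, ATP5MF, ATP5MG and ATP5MPL had changes between 0.04 and 0.39 and were not called. ATP5IF1, the inhibitor that stops the enzyme from running in reverse, had 61.0, 67.7 and 73.2 FPKM with celastrol and 75.9, 60.3 and 71.6 FPKM with DMSO, and was not called (adjusted p = 0.812). ATP5S, a gene the rule takes by its name, was not called at a change of -0.32 (adjusted p = 0.209).

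**Figure D4:**
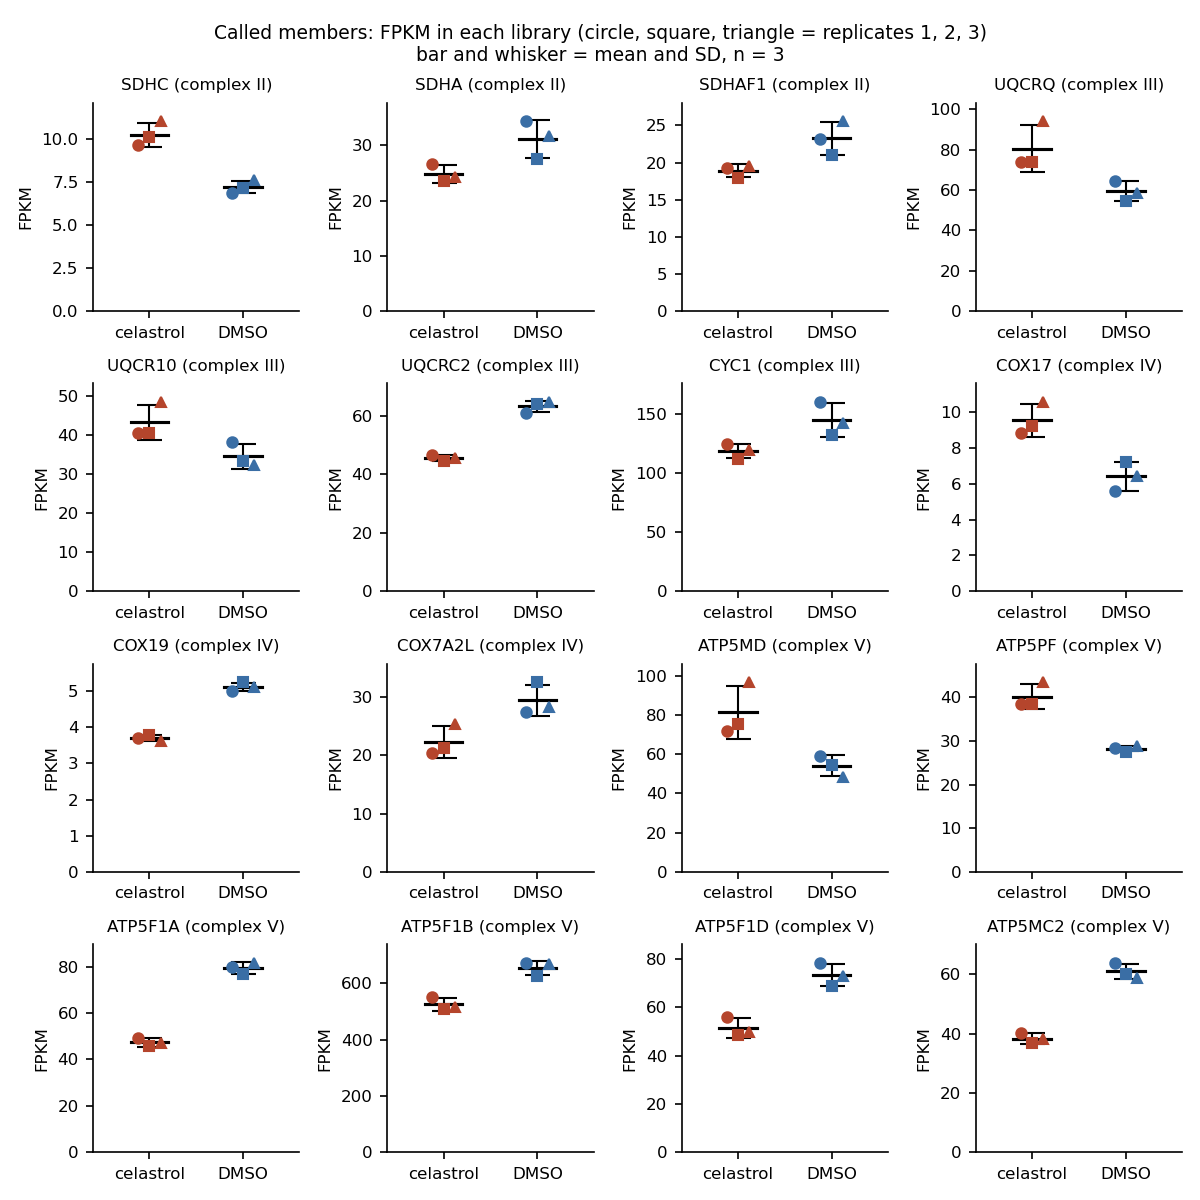
Each panel is 1 of the 16 called members, with FPKM on the vertical axis from 0, celastrol left of DMSO, 1 symbol per library and the mean with its SD (n = 3) in black. The treatments do not overlap in any of the 16 panels, and celastrol library 3 (triangles) is the highest celastrol value in all 6 members called higher.

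Of the 16 calls, 7 were kept in every one of the 18 alternative settings. These were SDHC, COX17 and ATP5PF among those called higher, and UQCRC2, ATP5F1A, ATP5F1D and ATP5MC2 among those called lower. As TPM, 10 of the 16 calls were kept, and SDHA, SDHAF1, CYC1, COX7A2L and ATP5F1B were lost at changes between -0.16 and -0.04, still under 0. Without a filter on low values 9 were kept, and SDHA, SDHAF1, UQCRQ, UQCR10, CYC1, COX7A2L and ATP5F1B were lost, with adjusted p-values of 0.0769 to 0.145. With listed reads 12 were kept, and SDHA, SDHAF1, CYC1 and COX7A2L were lost. COX19 was also lost as TPM (adjusted p = 0.0705) and ATP5MD without DMSO library 3 (adjusted p = 0.0520). Leaving out a library ended 8 of the 16 calls in at least 1 fit, all of them named above, and DMSO library 3 was the library without which the most calls were lost, 8 of 16. Calls over all genes tested also fell without that library, to 16.9% from 29.5%, beside 14.0% and 28.1% of the members.

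Promoters are shown for 4 of these 7, ATP5F1A and ATP5MC2 of those called lower and ATP5PF and COX17 of those called higher, to set the motifs found in each beside its call. The windows run from 250 bases before the start to 50 bases after it, from RefSeq on GRCh38.p14, and 49 of 66 members matched a window, 44 of them tested. A total of 3 motifs were searched on both strands, and capitals mark the matches. The NRF1 core was GCATGCGC, the ETS core that GABPA binds was CCGGAAG, and the YY1 core was AAGATGGC. The NRF1 core overlaps its own reverse complement, and COX17 holds such a pair.
ATP5F1A, chr18:46104178-46104477, minus strand: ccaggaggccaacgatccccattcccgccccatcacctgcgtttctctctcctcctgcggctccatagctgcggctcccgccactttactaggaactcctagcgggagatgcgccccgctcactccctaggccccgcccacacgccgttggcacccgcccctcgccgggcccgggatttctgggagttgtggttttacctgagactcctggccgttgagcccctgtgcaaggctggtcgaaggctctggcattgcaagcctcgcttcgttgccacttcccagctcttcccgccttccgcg
ATP5MC2, chr12:53676034-53676333, minus strand: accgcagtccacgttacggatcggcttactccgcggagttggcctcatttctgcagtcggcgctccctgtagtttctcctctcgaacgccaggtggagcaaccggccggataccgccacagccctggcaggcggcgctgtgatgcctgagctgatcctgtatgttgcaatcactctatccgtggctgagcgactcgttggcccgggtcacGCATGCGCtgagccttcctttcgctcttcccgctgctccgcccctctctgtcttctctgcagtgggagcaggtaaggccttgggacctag
ATP5PF, chr21:25735005-25735304, minus strand: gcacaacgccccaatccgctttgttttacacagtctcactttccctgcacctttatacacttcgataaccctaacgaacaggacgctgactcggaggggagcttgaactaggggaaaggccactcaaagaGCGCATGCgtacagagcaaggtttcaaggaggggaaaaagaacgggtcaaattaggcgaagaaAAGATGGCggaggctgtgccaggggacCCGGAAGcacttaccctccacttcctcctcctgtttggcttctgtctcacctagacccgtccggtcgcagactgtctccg
COX17, chr3:119677357-119677656, minus strand: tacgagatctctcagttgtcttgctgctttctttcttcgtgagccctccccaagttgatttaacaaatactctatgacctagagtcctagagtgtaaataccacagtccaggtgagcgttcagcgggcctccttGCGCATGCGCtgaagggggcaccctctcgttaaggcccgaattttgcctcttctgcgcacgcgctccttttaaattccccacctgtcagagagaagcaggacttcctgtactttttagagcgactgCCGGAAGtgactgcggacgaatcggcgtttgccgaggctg
The ETS core was in 19 of the 44 tested members with a window (43.2%), against 10.7% of all 27305 promoters. It was in 3 of 4 members called higher (ATP5PF, COX17 and UQCRQ), in 0 of 7 called lower and in 16 of 33 not called. The NRF1 core was in 12 of 44 (27.3%), against 3.27% of all promoters, with 2 of 4 called higher, 1 of 7 called lower and 9 of 33 not called. The YY1 core was in 6 of 44 (13.6%), against 3.03% of all promoters, and in 1 of 4 called higher and 0 of 7 called lower. These are counts of letters in a window, and the search was made after the calls were known. The 27305 promoters are 1 window per gene symbol, with no filter on gene type or expression. The 44 members are all protein-coding with a mean of at least 1 FPKM, so the sets are unlike. Whether the members differ from other expressed protein-coding genes in these motifs was not tested.

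Several members start beside another gene that runs the other way. Of the 57 tested, 11 had a protein-coding neighbour on the opposite strand whose start lay within 1000 bases upstream or 300 bases of overlap. Among the called members with such a neighbour, ATP5F1A fell while HAUS1, whose start overlaps its own by 2 bases, averaged 26.5 ± 0.83 FPKM with celastrol and 29.8 ± 3.24 FPKM with DMSO and was not called (adjusted p = 0.201). ATP5MD rose, and PDCD11, starting 134 bases away, averaged 19.7 ± 1.45 FPKM with celastrol and 19.3 ± 1.54 FPKM with DMSO (adjusted p = 0.818). The neighbours of SDHA (CCDC127) and UQCR10 (ZMAT5) were also not called. The difference between neighbours was not tested. ATP5PF shared 23.05% of its exonic bases with GABPA on the opposite strand and another gene, and the sources used here do not say whether reads were counted by strand, so reads of the pair cannot be told apart in that stretch. GABPA averaged 8.0 ± 0.43 FPKM with celastrol and 6.55 ± 1.15 FPKM with DMSO and was not called (adjusted p = 0.120).

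Gene length was set beside the changes. Over the 57 members the log2 fold change had a Pearson r of -0.29 with the log2 of the exonic length of the gene. The Spearman rho with that length was -0.29. Within the 19 tested members of complex V the values were -0.55 and -0.47. Over all 12685 genes they were 0.06 and -0.0020. These are correlations across genes that share the same 6 libraries, given as a description. Single libraries, taken against the others of their treatment, also had correlations with log2 length over the 57 members. Their Pearson r was 0.27, -0.06 and -0.22 in celastrol libraries 1 to 3 and -0.31, 0.31 and 0.02 in DMSO libraries 1 to 3. The value of -0.29 over the members is therefore no larger than those found within a treatment. The median exonic length was 1757.5 bases for the 6 members called higher and 4604 bases for the 10 called lower. The part of length in the calls was not tested.

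Summed over their members, complexes II, III and IV overlapped between the treatments as deposited, and as TPM all 3 lay higher with celastrol without overlap. Complex II came to 154, 153 and 162 FPKM with celastrol and 153, 164 and 162 FPKM with DMSO. Complex III came to 709, 679 and 794 FPKM with celastrol and 769, 697 and 739 FPKM with DMSO. Complex IV came to 1009, 974 and 1133 FPKM with celastrol and 1095, 1004 and 1043 FPKM with DMSO. Complex V came to 1289.6, 1237 and 1344 FPKM with celastrol and 1496, 1424 and 1462 FPKM with DMSO, apart and lower with celastrol, but as TPM its sums of 5052, 4992 and 5152 with celastrol lay above those of 4871, 4840.2 and 4844 with DMSO. As TPM, complex II came to 604 to 623 with celastrol and 497 to 556 with DMSO. Complex III came to 2742 to 3045 with celastrol and 2369.5 to 2506 with DMSO as TPM. Complex IV came to 3929.8 to 4344 with celastrol and 3411 to 3567 with DMSO as TPM. With listed reads and with nuclear reads complexes II, III and IV overlapped, and complex V was lower with celastrol without overlap. The total that sets TPM includes the genes of mitochondrial DNA. These genes held 1.37% to 1.85% of listed reads with celastrol and 5.44% to 5.65% with DMSO. Their part in the higher sums as TPM was not tested. ATP5F1B takes the largest part of the complex V sum.

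The nuclear sums contrast with the mitochondrially encoded partners. All 6 mitochondrial genes of complexes III to V were called lower, with a median log2 fold change of -2.10. The largest falls were those of MT-CO2 at -2.54, MT-CO3 at -2.28 and MT-CYB at -2.20 (adjusted p = 7.26e-05, 6.50e-05 and 5.83e-05 by limma-trend). MT-CO1, MT-CO2 and MT-CO3 together stood at 7551, 5502.5 and 5252 FPKM with celastrol and 27121, 26731 and 27009 FPKM with DMSO. The ratio of the nuclear subunits of complex IV to these 3 genes was 0.124, 0.164 and 0.1999 with celastrol and 0.0376, 0.0345 and 0.0357 with DMSO, a 4.53-fold higher mean with celastrol. The ratio of nuclear complex III to MT-CYB was 4.56-fold higher, and that of nuclear complex V to MT-ATP6 and MT-ATP8 was 3.39-fold higher. These ratios lie within a library, so the scaling of libraries does not enter them.

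**Figure D5:**
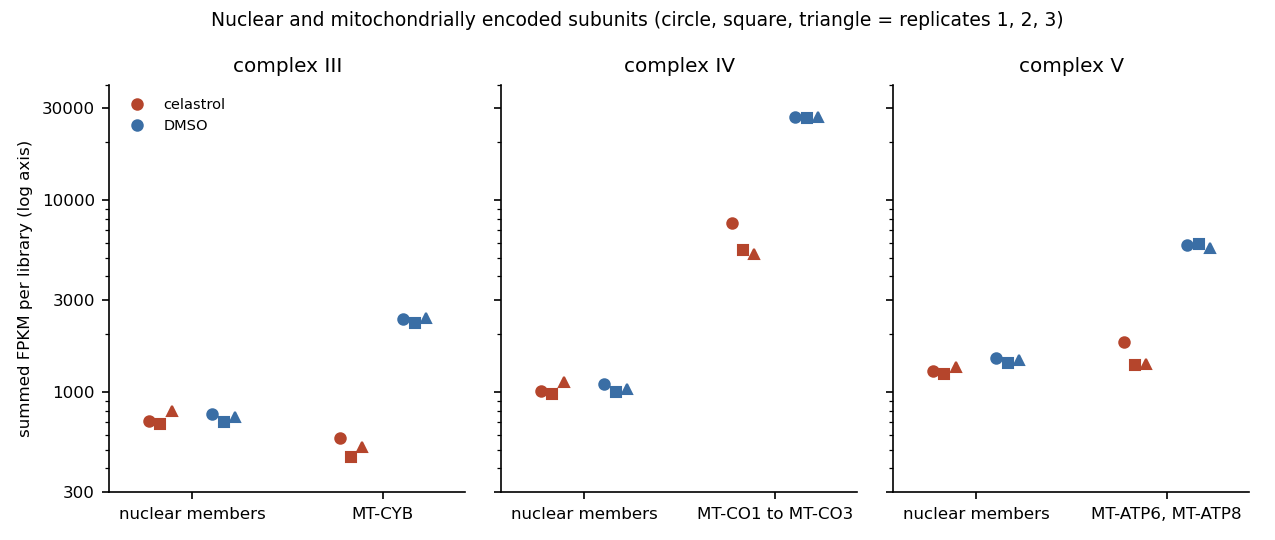
The vertical axis is summed FPKM per library on a log axis, for the nuclear members and for the mitochondrially encoded subunits of complexes III, IV and V, with celastrol left of DMSO and 1 symbol per library. The mitochondrially encoded sums separate widely, for complex IV between 5252 and 7551 FPKM with celastrol and between 26731 and 27121 FPKM with DMSO, while the nuclear sums lie close together.

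Assembly factors whose names the rule does not take were also counted. Of 25 listed, 22 were tested, with 9 called higher, 1 called lower and a median log2 fold change of 0.17, where 15.3% of all genes tested were called higher and 14.2% lower. As TPM, 16 were higher and 1 lower, where 5266 of all 12685 genes tested were higher and 813 lower. Without celastrol library 3, 3 were called higher and 1 lower, where 1211 of all 12671 genes tested were higher and 1284 lower. Without DMSO library 3, 2 were called higher and 1 lower, where 1140 of all 12695 genes tested were higher and 1003 lower. At an unadjusted p under 0.05 by limma-trend, 9 were higher and 1 lower in each of these fits. PET100, a chaperone of complex IV assembly, had 2.06, 2.12 and 3.54 FPKM with celastrol and 1.56, 0.90 and 0.94 FPKM with DMSO (log2 fold change 1.11, adjusted p = 0.0231). COA3, which helps the early steps on newly made MT-CO1, had 14.0, 13.1 and 17.9 FPKM with celastrol and 9.54, 7.77 and 8.92 FPKM with DMSO (log2 fold change 0.76, adjusted p = 0.00527). COA6, of the copper delivery path, had a log2 fold change of 0.49 (adjusted p = 0.0271). OXA1L, the insertase of the inner membrane, was the gene called lower and is named after its values were seen, at 23.4, 23.5 and 24.1 FPKM with celastrol and 35.4, 30.6 and 33.4 FPKM with DMSO (-0.48, adjusted p = 0.00358). NDUFA4, a complex IV subunit whose name the rule misses, averaged 45.0 ± 4.59 FPKM with celastrol and 41.3 ± 1.58 FPKM with DMSO and was not called.

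Among regulators of nuclear respiratory genes, 0 of 15 tested were called higher and 3 lower by limma-trend, with 1 higher and 6 lower at an unadjusted p under 0.05, and limma-voom called 3 higher and 3 lower. Over all genes tested, limma-trend called 15.3% higher and 14.2% lower, and limma-voom called 3650 of 12685 higher and 1465 lower. As TPM, 5 were higher and 1 lower, where 5266 of all 12685 genes tested were higher and 813 lower. Without DMSO library 2, 2 regulators were higher and 4 lower, where 1948 of all 12660 genes tested were higher and 1766 lower. The count called lower was 1 without DMSO library 3, where 1003 of all 12695 genes tested were lower. It was 2 without celastrol library 2, where 1137 of 12680 genes were lower. It was also 2 without DMSO library 1, where 1616 of 12660 genes were lower. MYC averaged 58.2 ± 8.54 FPKM with celastrol and 88.3 ± 2.50 FPKM with DMSO (log2 fold change -0.61, adjusted p = 0.00518). SP1 averaged 20.1 ± 1.21 FPKM with celastrol and 25.1 ± 0.53 FPKM with DMSO (log2 fold change -0.32, adjusted p = 0.0141). CHCHD2 averaged 358 ± 19.6 FPKM with celastrol and 428 ± 10.9 FPKM with DMSO (log2 fold change -0.26, adjusted p = 0.0256). NRF1 and PPARGC1A are named for their role, after their values were seen. NRF1, at 5.37 ± 0.06 FPKM with celastrol and 6.16 ± 0.68 FPKM with DMSO, was not called (adjusted p = 0.169). PPARGC1A, a coactivator known for raising mitochondrial gene expression in muscle and brown fat, had 0 FPKM in every celastrol library and at most 0.0068 FPKM in a DMSO library. Of 36 complex I subunits tested, 9 were called higher and 1 lower, with a median of 0.18. That is 27.8% of those tested, near the 29.5% of all genes tested, and is not a result about complex I. Without each of celastrol libraries 2 and 3 and DMSO library 3 in turn, 5 complex I subunits were called higher. In those fits, in that order, 1119 of 12680, 1211 of 12671 and 1140 of 12695 genes tested were called higher. As TPM 23 complex I subunits were called higher, where 5266 of all 12685 genes tested were higher.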

How the data were processed

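RNA was sequenced from SKM-1 cells after 48 h with celastrol (3 libraries) or DMSO (3 libraries), grouped by the sample titles. The deposited table gives FPKM per gene, which the authors made with HISAT2 2.0.5 and featureCounts 1.5.0-p3 on GRCh38 (hg38), per the submitters' processing notes; neither the settings nor any use of strand in counting is stated there. Reads were recovered from FPKM times gene length, which was a whole number of reads, with a tolerance of 0.001, in 100% of nonzero values. The authors' scaling total was 1.04, 1.05 and 1.04 times the recovered reads in celastrol libraries 1 to 3 and 0.963, 0.994 and 0.965 times in DMSO libraries 1 to 3, a difference between treatments that lowers deposited celastrol values relative to listed reads. Of 58735 genes, 58724 had the position of GENCODE release 29, and all 66 member lengths equalled the union of their exons. Of the members, 34 share exonic bases with another gene, and reads there may be divided or dropped. No library repeated another (chi-square per gene 4.01 to 13.4 between libraries of a treatment).

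Limma 3.58.1 in R 4.3.3 was fitted as limma-trend to log2(FPKM + 0.1) of all 12685 genes with a mean of at least 1 FPKM, with treatment as the single term. Tests were two-sided with Benjamini-Hochberg adjustment over all genes tested and a threshold of 0.05, and each adjusted p comes from this fit unless another is named. The pseudocount understates changes of low genes. Means, SDs, sums and ratios were taken on FPKM. Limma gave the log2 fold changes, their SEs and 95% intervals. The fit was tested on simulated data. Promoters and their motifs are from RefSeq tables.

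The members and the lists of other genes were chosen with earlier results of these data known, and no test was made over a list. Every called member was named, with the complex II subunits, the most abundant member of each complex, the paired isoforms, CYCS, ATP5IF1 and the 3 called genes of largest change, or fewer, of each further list. Other genes were named after their values were seen. Alternatives were the TPM, listed-read and nuclear-read scalings, quantile normalization, median centring, other pseudocounts, no filter or a minimum of 5 FPKM, protein-coding genes alone, limma-voom on recovered reads, a term for the replicate number, and leaving out each library. All 6 value columns were used.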

Additional observations from a re-analysis of the deposited data

How the results depend on the processing

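The scaling of libraries bore most on the counts, since the median change over all genes tested was 0.02 (log2) as deposited, 0.26 as TPM, 0.12 with listed reads and with limma-voom, and 0.06 with nuclear reads. As TPM, 28 members were higher and 4 lower, with 5266 genes higher and 813 lower in all, and the medians of complexes II, III, IV and V were 0.181, 0.335, 0.299 and 0.239. With listed reads, 12 members were higher and 6 lower, 3024 genes were higher, and the medians of complexes II and V were 0.038 and 0.095. With limma-voom, 19 members and 3650 genes were higher, and the medians of complexes II, IV and V were 0.042, 0.167 and 0.096. Without a filter 5 members were lower, and at a minimum of 5 FPKM the median of complex II was 0.05. Leaving out 1 library gave 3 to 7 members higher, 5 to 9 lower, 1119 to 1948 genes higher, 1003 to 1766 genes lower, and medians of -0.084 to 0.031 in complex II, -0.036 to 0.146 in complex III, -0.035 to 0.092 in complex IV and -0.043 to 0.031 in complex V. The treatments did not overlap in 37 members as TPM, 29 with listed reads and 24 with nuclear reads, against 26 as deposited, a check added after seeing the data. The share of all genes without overlap is not given for these scalings, so the counts are not a result about the members. As TPM 47.9% of all genes tested were called, against 29.5% as deposited.

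No called member took the other sign under any alternative. Of the 57 tested members, the change took the other sign in 16 as TPM, 9 with listed reads, 9 by limma-voom, 4 with nuclear reads, 2 with quantile normalization and 3 to 5 without 1 library. Of the members named by the rule these were ATP5IF1 (0.2027 as TPM, 0.05942 with listed reads, 7.454e-05 with nuclear reads, 0.05897 by limma-voom, -0.1353 to 0.03083 without 1 library), ATP5MC3 (0.2388 as TPM, 0.09541 with listed reads, 0.03608 with nuclear reads, 0.01827 with quantile normalization, 0.09564 by limma-voom, -0.03774 to 0.01972 without 1 library) and SDHD (0.2403 as TPM, 0.09676 with listed reads, 0.03755 with nuclear reads, 0.1005 by limma-voom, -0.1856 to 0.1536 without 1 library). COX8A stood at 0.1547 as TPM, 0.01138 with listed reads, 0.06056 with quantile normalization and 0.01087 by limma-voom, and COX4I1 at 0.01185 as TPM. Without 1 library COX6A1 ran from -0.04286 to 0.182, COX6B1 from -0.02134 to 0.09177, COX7A2 from -0.03514 to 0.1712, COX7B2 from -0.1957 to 0.3522 and UQCRH from -0.06152 to 0.07575. The cause of these shifts was not tested.

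With a replicate block, 6 members were higher and 10 lower, with 1776 genes higher and 1617 lower in all, and 15 of the 16 calls were kept, UQCR10 being lost (adjusted p = 0.0730 by limma-trend). The labels do not say whether libraries of the same number were paired. Their deviations from the treatment means correlated at -0.0156, -0.0326 and 0.0339, and those of unlike number at -0.0281 to 0.0408. Correlations over all genes cannot settle whether the numbers pair. With 3 libraries a treatment and 13549187 reads in the shallowest, genes of few reads such as COX7B2 limit what can be told apart.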
